A study of Bos taurus with 12 samples.

Results

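The genes described here make cholesterol and fatty acids, regulate that synthesis, or move sterols within the cell. Of 31 listed genes, 30 had a probe under their name, of 12507 genes measured in all. A gene was found by its name in the scanner files (MSMO1 and CYP51A1 also under an older name), and its brightest probe over the 12 arrays stood for it. Of the list, SC5D alone had no probe under the name searched. Each of the 30 genes was well above background on all 12 arrays, by the scanner software's own call, and their 81 probes were all kept, so the filter on dim probes removed none.

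The samples were endometrial biopsies of 3 cows labelled as fertile, taken on 4 days (0, 2, 7 and 14) counted from PVP-I, which is povidone-iodine, an iodine-releasing antiseptic. The same 3 cows gave all 12 samples, from alternating uterine horns, and total RNA of each was hybridised to 1 one-colour (Cy3) Agilent array. Every cow was treated and no untreated cow was sampled, so the antiseptic, elapsed time, the oestrous cycle and repeated biopsy cannot be told apart. The uterine horn was not part of the model, and its part in the changes was not tested. Day also coincided with position on the slide, and cow with slide, which cannot be told apart either.

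The deposited value table and the links of the scanner files named different samples for 10 of the 12 arrays. The names used here are those of the deposited value table, each column of which matched 1 scanner file (correlation 1.0 over all probes, with at most 0.52 for the next best). Under the table's names, 2, 12 and 6 probes set the 4 arrays of cow 1, 2 and 3 at least 8-fold apart from all other arrays, and under the file links none did. Under the table's names each cow was also 1 slide, so those probes may mark the cow or the slide, which cannot be told apart. They do not bear on the day of an array. Under the file links 0 of the 30 genes passed the test between days (limma, a linear model fitted to all probes) in each comparison, with at most 2 at an unadjusted p under 0.05, and these values are given beside the results. The share of probes well above background was 63.2% on the day 2 array of cow 3 and between 71.3% and 76.0% on the other 11 arrays.

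Cholesterol is built from acetyl-CoA through mevalonate, isoprenoid units and squalene, which is closed into a ring and trimmed to cholesterol, while fatty acids are built from the same acetyl-CoA. The transcription factor SREBP-2, encoded by SREBF2, switches on the sterol genes when membrane sterol is low, and SREBP-1, from SREBF1, acts more on fatty acid genes. SCAP escorts both factors out of the endoplasmic reticulum and the INSIG proteins hold them there. Growing cells need both products for membranes, and sterols are the starting material of steroid hormones, to which the endometrium responds.

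Of the 10 genes that passed the test in a comparison with day 0, the probes carry the values below, so the first 30 of their 60 bases are shown, 5′ to 3′, as the scanner files list them. Positions of the whole probe are those of the files, on the build Btau_3.1. No annotation of that build was used, so exon and UTR are not given. For ACACA and TM7SF2 the position covers more than 60 bases, so the probe is not contiguous in that genome.
SQLE (chr14:14605558-14605617, minus strand): acattgaggagctgcggtttgtcttttgaa
ACAT2 (chr14:38660162-38660220, minus strand): attatgggaataggaccaattccagcaata
HMGCS1 (chr20:33482077-33482136, plus strand): gcatcaattgtgcaccttattaacagtgag
MVK (chr17:66901966-66902025, minus strand): ttggccgaaggcagggtcgatgtgcaatac
FDPS (chr3:16650042-16650101, minus strand): atctacaagcggaaaaagtgacctagagtc
TM7SF2 (chr29:45137063-45137209, plus strand): cgaaagaatccttctgatcccagagtggct
SREBF2 (chr5:120041454-120041513, plus strand): tgcccacatcagccgccgcctccctccatt
INSIG1 (chr4:121371794-121371853, plus strand): taccagattggaacatctagtgagattcac
ACLY (chr19:43407299-43407358, minus strand): gttattgactcttctccaaccagtttgcat
ACACA (chr19:12873519-12875405, minus strand): aagtacatcagcagagactacgtcctcaag

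GC content of the genes' brightest probes ran from 35.0% to 66.7%, the upper end being that of SREBF2. The genes lay on 19 chromosomes, with 4 on chromosome 19 (ACACA, ACLY, FASN and SREBF1) and 3 on chromosome 3 (FDPS, HSD17B7 and PMVK), and SCD had no position in the files. A RefSeq table of a later assembly, ARS-UCD2, put 27 of 29 placed genes on the same chromosome and 2, ACAT2 and STARD4, on another.

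Most of the genes had their highest mean on day 2 or day 7, and 27 of the 30 had a lower mean on day 14 than on day 2. By day mean, 19 of the 30 were highest on day 2 (18.5% of all genes), 8 on day 7 (32.3% of all genes), 2 on day 14 (19.9%) and 1 on day 0 (29.3%). The median log2 change from day 0 was 0.74 on day 2, 0.45 on day 7 and 0.092 on day 14, and over all 12507 genes it was 0.011, 0.044 and 0.043. Changes are differences of log2 signal relative to each array's 75th percentile, from a limma model with cow as block, and a call is an adjusted p under 0.05 over 33539 probes. In these bulk samples, fewer cells of a type and less RNA per cell cannot be told apart.

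**Figure D1:**
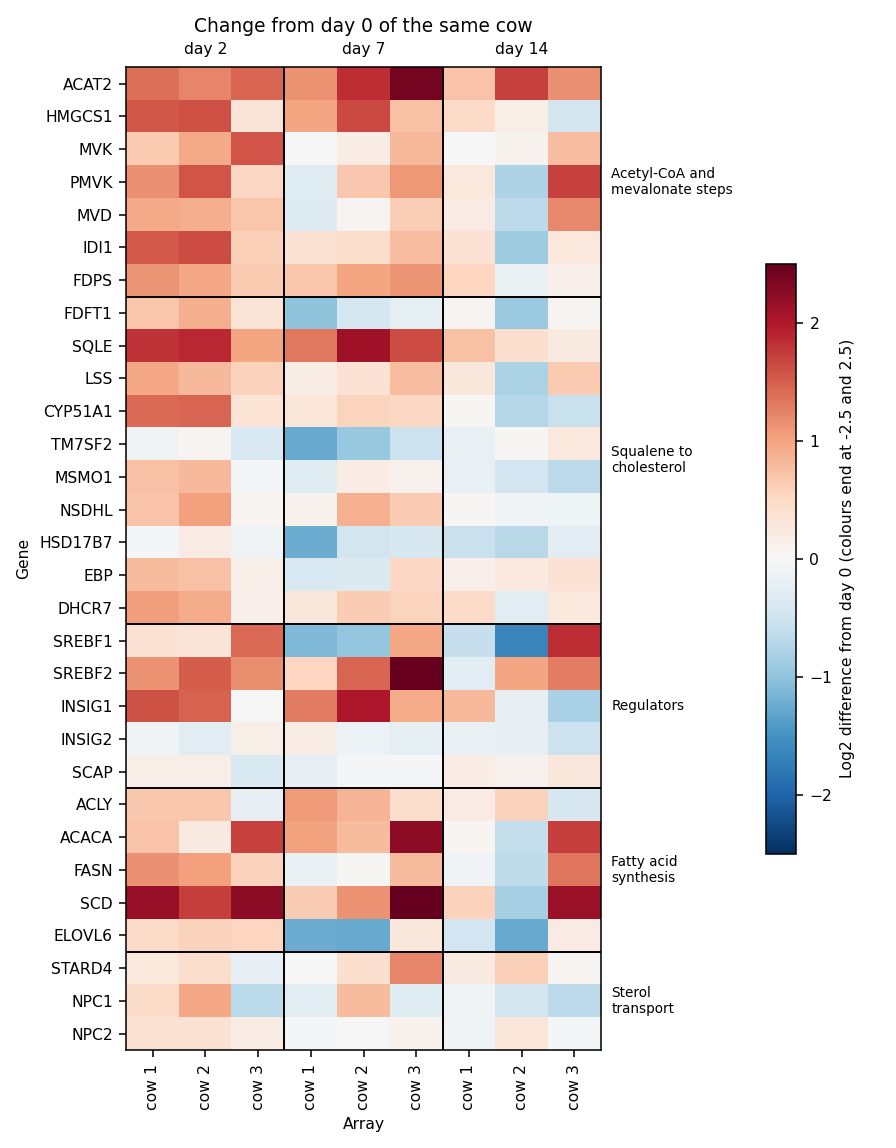
Log2 difference of each of the 30 genes (rows, by role) from the day 0 array of the same cow, for the 9 later arrays (columns); red is higher than day 0 and blue is lower. Day 2 is red for most genes in cows 1 and 2, and on day 14 the cows differ, with SREBF1 blue in cow 2 and red in cow 3.

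On day 2 against day 0, 2 of the 30 genes rose, SQLE and MVK, and none fell. That is to be read beside 2.94% of all genes called in either direction, 1.97% higher and 0.975% lower. Changes were above 0 for 27 of the 30 (6399 of the 12507 genes), and 22 of the 30 were higher in 3 of 3 cows (3610 of the 12507). At an unadjusted p under 0.05, 15 of the 30 passed, and 2718 of the 12507. For 16 of the 30 the 3 day 2 arrays all lay above the 3 day 0 arrays, against 14.4% of all genes, and for 0 they all lay below, against 12% of all genes. Within cows the median change on day 2 was 0.76 in cow 1, 0.91 in cow 2 and 0.34 in cow 3. Without cow 1 or without cow 2, 0 of all 33539 probes were called, so the count of 0 of the 30 there says nothing about these genes. The change without cow 1 and without cow 2 was 1.44 and 1.40 for SQLE (1.56 with all cows) and 1.26 and 1.11 for MVK (1.06 with all cows). Without cow 3, 1 of the 30 was called, SQLE, with MVK at an adjusted p of 0.0673. Under the file links 0 were called, and the median change was 0.13.

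On day 7 against day 0, 8 of the 30 genes rose (SQLE, ACAT2, HMGCS1, FDPS, SREBF2, INSIG1, ACLY and ACACA) and 1, TM7SF2, fell. Of all genes 19.2% were called on day 7, 11% higher and 8.23% lower, and whether the 30 genes differ from all genes in this share was not tested. At an unadjusted p under 0.05, 11 of the 30 passed, and 4599 of the 12507. For 13 of the 30 the day 7 arrays all lay above the day 0 arrays (22.3% of all genes), and for 3, FDFT1, TM7SF2 and HSD17B7, they all lay below (18.4% of all genes). The median change by cow was 0.046, 0.42 and 0.68 in cows 1, 2 and 3, an order unlike that of day 2. Without cow 1, 0 of all 33539 probes were called, and without cow 2, 213 were, against 6100 with all cows, and none of the 30 genes was among them. The change of SQLE was then 1.88 and 1.48 (1.69 with all cows) and that of ACAT2 2.12 and 1.76 (1.79 with all cows). A fit on the arrays of day 7 and day 0 alone called 2 of the 30. Under the file links the count was 0 and the median change was -0.15.

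On day 14 against day 0, limma called 0 of the 30 genes, with 0.104% of all genes called. At an unadjusted p under 0.05, 2 of the 30 passed, and 2583 of the 12507. The 2 were ACAT2 (log2 change 1.19 ± 0.29 SE, adjusted p = 0.0903) and HSD17B7 (-0.50 ± 0.22, adjusted p = 0.242). The day 14 arrays lay all above those of day 0 for 4 genes, ACAT2, SQLE, EBP and SCAP (15.4% of all genes), and all below for 2, MSMO1 and HSD17B7 (11.7% of all genes). The F-test over the 4 days called 5 of the 30, SQLE, ACAT2, HMGCS1, MVK and FDPS, against 8.38% of all genes.

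**Figure D2:**
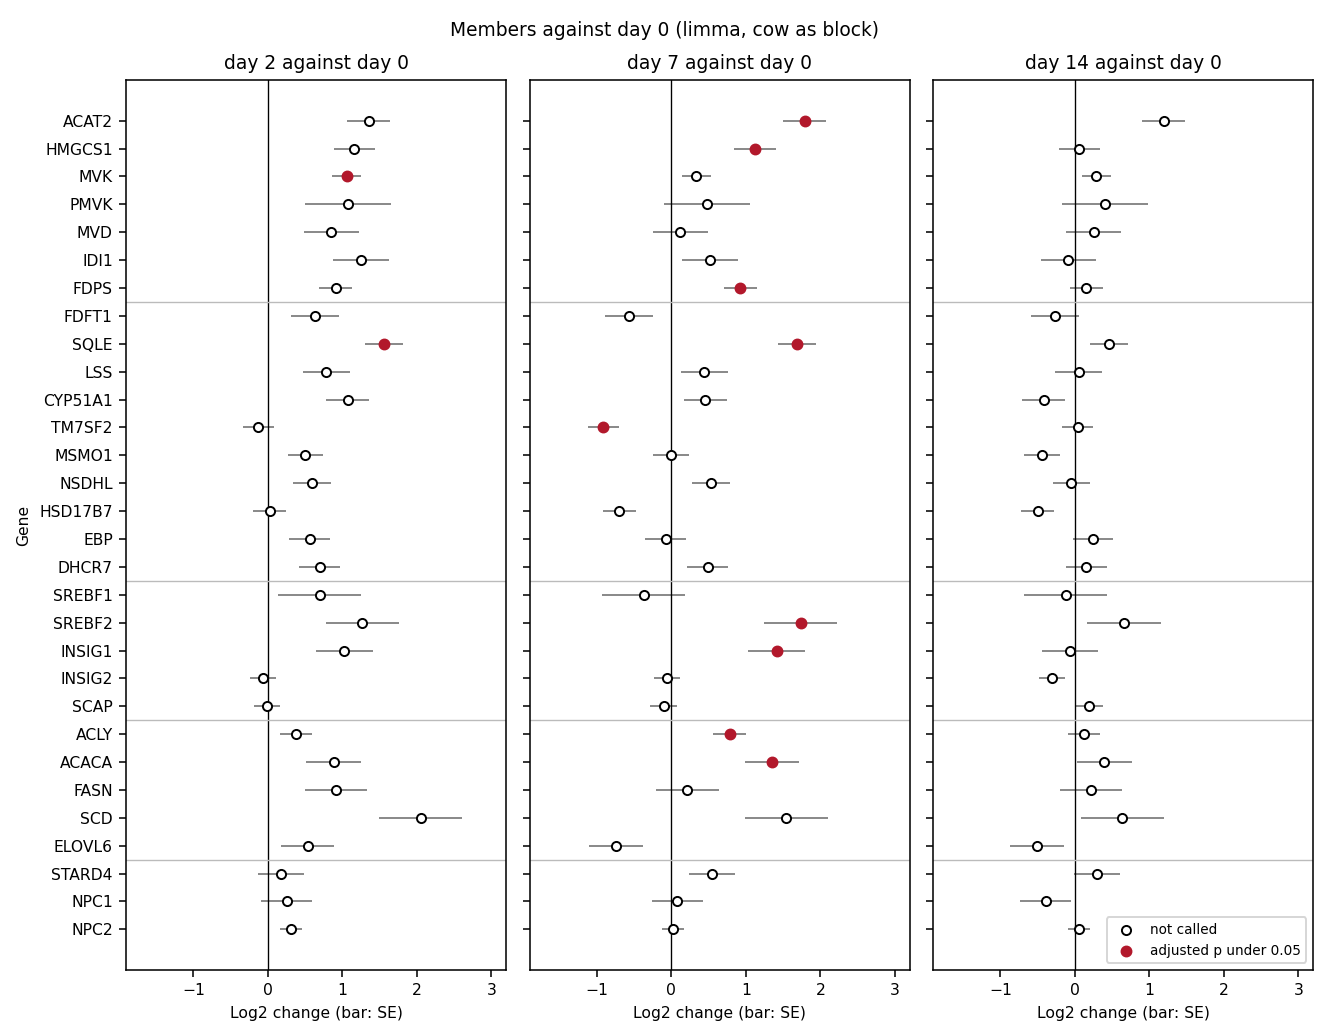
Log2 change against day 0 with its standard error for the 30 genes (rows, by role) on day 2, 7 and 14; filled red points have an adjusted p under 0.05 (limma, 12 arrays, cow as block) and open points do not. On day 2 the called points are MVK and SQLE, on day 7 there are 9, of which TM7SF2 alone lies below 0, and on day 14 there are none.

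The 7 genes that lead from acetyl-CoA to farnesyl diphosphate were higher on day 2 in 3 of 3 cows each, with a median log2 change of 1.07. On day 2, 1 of the 7 rose (1.97% of all genes), and on day 7, 3 rose (11% of all genes), with a median change of 0.52. ACAT2, the thiolase that joins acetyl-CoA units, had a log2 signal of -2.41, -2.57 and -2.83 in cows 1, 2 and 3 at day 0, -1.02, -1.35 and -1.38 at day 2, -1.28, -0.72 and -0.44 at day 7, and -1.70, -0.85 and -1.68 at day 14. The arrays of each later day all lay above those of day 0. ACAT2 rose on day 7 by a log2 change of 1.79 ± 0.29 SE (3.45-fold, adjusted p = 0.00812, limma), with means of -0.81 ± 0.43 on day 7 and -2.60 ± 0.21 on day 0 (SD, n = 3 each). On day 2 its change of 1.35 had an adjusted p of 0.0525, on the other side of the threshold from the 1.35 of its second probe (adjusted p = 0.0373).

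HMGCS1, the cytosolic HMG-CoA synthase, had 1.15, 1.27 and 1.97 at day 0, 2.71, 2.87 and 2.29 at day 2, 2.14, 2.93 and 2.69 at day 7, and 1.63, 1.44 and 1.504 at day 14. Day 2 and day 7 did not overlap with day 0, whereas day 14 did. It rose on day 7 (log2 change 1.12 ± 0.28 SE, adjusted p = 0.0289, limma), and on day 2 its change of 1.16 had an adjusted p of 0.0691. The day 2 change was 1.56, 1.60 and 0.33 in cows 1, 2 and 3, cow 3 having started from the highest day 0 signal.

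MVK, mevalonate kinase, had 2.94, 2.63 and 2.55 at day 0, 3.59, 3.58 and 4.12 at day 2, 2.95, 2.81 and 3.36 at day 7, and 2.94, 2.71 and 3.33 at day 14. It was higher on all 3 day 2 arrays than on any other array, and its day 7 and day 14 arrays overlapped with day 0. MVK rose on day 2 by a log2 change of 1.06 ± 0.20 SE (2.08-fold, adjusted p = 0.0364, limma), with means of 3.76 ± 0.31 on day 2 and 2.71 ± 0.21 on day 0 (SD, n = 3 each). Its day 7 change was 0.33 (adjusted p = 0.262). A second probe of MVK had a day 2 change of 1.33 with an adjusted p of 0.0662.

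FDPS, which makes farnesyl diphosphate, had 2.44, 2.69 and 2.82 at day 0, 3.55, 3.65 and 3.47 at day 2, 3.14, 3.67 and 3.92 at day 7, and 2.98, 2.49 and 2.95 at day 14. Day 2 and day 7 both stood clear of day 0, with the day 2 arrays within a narrower range. It rose on day 7 (log2 change 0.93 ± 0.22 SE, adjusted p = 0.025, limma), and on day 2 the change was 0.91 (adjusted p = 0.0700). Of the other members of these steps, IDI1, the isomerase of the isoprenoid units, had a log2 change of 1.25 on day 2 (adjusted p = 0.114) without overlap with day 0. PMVK, phosphomevalonate kinase, and MVD, the decarboxylase after it, had changes of 1.07 and 0.85 on day 2 (adjusted p = 0.328 and 0.239), and the arrays of the 2 days overlapped.

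**Figure D3:**
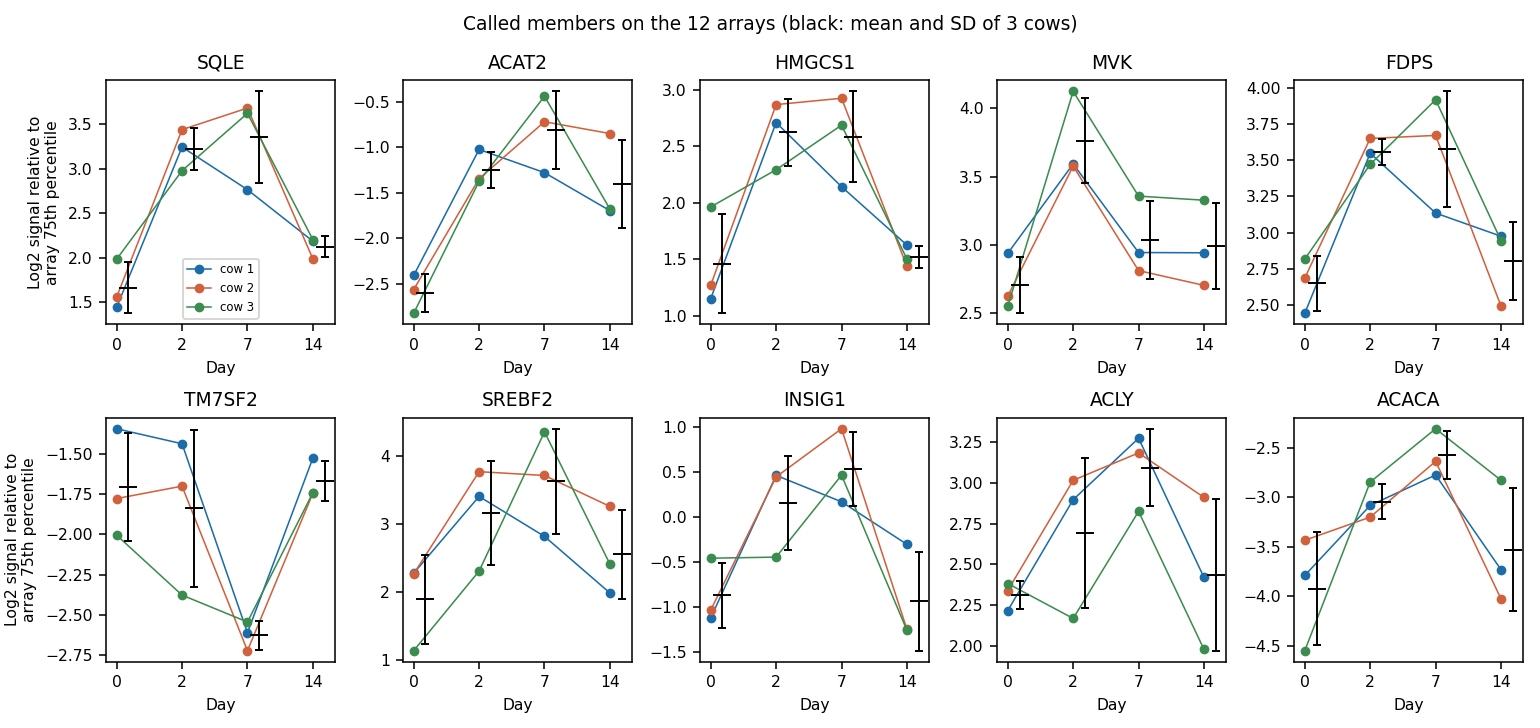
Log2 signal relative to the array's 75th percentile on days 0, 2, 7 and 14 for the 10 genes called in a comparison with day 0; coloured lines join the arrays of 1 cow, black bars give mean and SD (n = 3), and each panel has its own axis. SQLE is above its day 0 range on every later array, MVK peaks on day 2 in each cow, and TM7SF2 has its low point on day 7.

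Of the 10 measured genes from squalene to cholesterol, 1 rose on day 2, beside 1.97% of all genes. On day 7, 1 rose and 1 fell, beside 11% and 8.23% of all genes. The median change was 0.62 on day 2 and 0.22 on day 7. SQLE, squalene epoxidase, a control point of the sterol pathway, had 1.44, 1.56 and 1.98 at day 0, 3.24, 3.44 and 2.98 at day 2, 2.76, 3.68 and 3.62 at day 7, and 2.19, 1.99 and 2.20 at day 14. All day 2 and day 7 arrays lay above all day 0 and day 14 arrays. SQLE rose 2.94-fold on day 2 (log2 change 1.56 ± 0.25 SE, adjusted p = 0.0272, limma) and 3.23-fold on day 7 (1.69 ± 0.25, adjusted p = 0.00629), higher in 3 of 3 cows both times. Means were 3.22 ± 0.23 on day 2, 3.35 ± 0.51 on day 7 and 1.66 ± 0.29 on day 0 (SD, n = 3 each).

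TM7SF2, a sterol reductase that acts after ring closure, was the 1 gene of the 30 that fell. Its signal was -1.35, -1.78 and -2.01 at day 0, -1.44, -1.70 and -2.38 at day 2, -2.61, -2.72 and -2.54 at day 7, and -1.53, -1.75 and -1.74 at day 14. The 3 day 7 arrays lay below all others, and the 3 cows were closest together there. It fell on day 7 (log2 change -0.92 ± 0.21 SE, adjusted p = 0.022, limma), and its day 2 change was -0.13 (adjusted p = 0.758).

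Between SQLE and TM7SF2 in the pathway stand LSS, lanosterol synthase, and CYP51A1, the lanosterol demethylase. CYP51A1 had a log2 change of 1.07 on day 2 (adjusted p = 0.0910) without overlap with day 0, and LSS had 0.78 (adjusted p = 0.207) with overlap. FDFT1, squalene synthase, lay above day 0 on all day 2 arrays (log2 change 0.64, adjusted p = 0.2999) and below it on all day 7 arrays (-0.57, adjusted p = 0.246). HSD17B7, a sterol ketone reductase, lay below day 0 on all day 7 arrays (-0.70, adjusted p = 0.0586), and its other probe passed the test there (-1.06, adjusted p = 0.00978).

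The remaining genes of these steps did not pass the test on the probe that stood for them. EBP, a sterol isomerase, DHCR7, the last reductase of one branch, and NSDHL, a sterol dehydrogenase, had day 2 changes of 0.56, 0.70 and 0.60, each without overlap with day 0. Their adjusted p was 0.287, 0.199 and 0.230 (limma), and in cow 3 their day 2 changes were 0.15, 0.13 and 0.042. On day 7 a second probe of NSDHL had 0.79 (adjusted p = 0.0452), and the probe that stood for it 0.53 (adjusted p = 0.173). MSMO1, the sterol methyl oxidase, had 0.50 on day 2 and -0.0050 on day 7. For SC5D, which the name search missed, the brighter of 2 probes assigned to it through its accession had a log2 change of 0.48 on day 2 (adjusted p = 0.247), 0.12 on day 7 (adjusted p = 0.710) and -0.27 on day 14 (adjusted p = 0.493).

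Among the 5 regulators, none passed the test on day 2 and 2, SREBF2 and INSIG1, rose on day 7 (11% of all genes). SREBF2 had 2.28, 2.27 and 1.14 at day 0, 3.41, 3.77 and 2.31 at day 2, 2.82, 3.72 and 4.36 at day 7, and 1.99, 3.26 and 2.41 at day 14. The day 2 and day 7 arrays all lay above the day 0 arrays, but the day 7 change was 0.54, 1.45 and 3.22 in cows 1, 2 and 3. Its mean was 3.63 ± 0.77 on day 7 and 1.90 ± 0.66 on day 0 (SD, n = 3 each), and it rose by a log2 change of 1.74 ± 0.49 SE (adjusted p = 0.0443, limma). Without cow 3 the change was 0.99 and was not called (adjusted p = 0.0931).

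A second probe of SREBF2, downstream of the first in the genome, gave a smaller change that passed the test on both days. It was 0.91 on day 2 (adjusted p = 0.0429) and 0.84 on day 7 (adjusted p = 0.0185), where the probe that stood for the gene had 1.27 on day 2 (adjusted p = 0.194). Its first 30 bases are shown, for comparison with the brightest probe above, because the size and the call depend on which is read.
SREBF2, second probe (chr5:120042349-120042408, plus strand): gggggcaggcttggggatgggtgaaatcgt

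INSIG1, itself a target of SREBP-2 that holds SCAP in the endoplasmic reticulum, had -1.13, -1.04 and -0.46 at day 0, 0.46, 0.45 and -0.45 at day 2, 0.17, 0.98 and 0.47 at day 7, and -0.30, -1.25 and -1.26 at day 14. In cow 3 the day 2 array was level with day 0 (a change of 0.012), and the day 7 arrays all lay above all day 0 and day 14 arrays. INSIG1 rose on day 7 (log2 change 1.41 ± 0.38 SE, adjusted p = 0.0374, limma), and on day 2 its change was 1.03 (adjusted p = 0.177). A second probe of INSIG1, well above background on 7 arrays, had 0.695 on day 7 (adjusted p = 0.156).

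SREBF1 had 0.050, 0.051 and -1.87 at day 0, 0.40, 0.37 and -0.45 at day 2, -1.05, -0.92 and -0.91 at day 7, and -0.52, -1.60 and -0.021 at day 14. Its day 0 array of cow 3 was far below the other 2, and cow 3 was higher on day 7 than on day 0 (a change of 0.97) while cows 1 and 2 were lower (-1.10 and -0.97). The fitted changes were 0.70 ± 0.56 SE on day 2 and -0.37 ± 0.56 on day 7 (adjusted p = 0.509 and 0.672, limma).

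INSIG2, the other INSIG protein, had -0.0050, 0.53 and 0.94 at day 0, -0.094, 0.27 and 1.08 at day 2, 0.17, 0.38 and 0.71 at day 7, and -0.20, 0.32 and 0.40 at day 14. SCAP had 2.99, 2.98 and 2.90 at day 0, 3.16, 3.14 and 2.52 at day 2, 2.78, 2.92 and 2.85 at day 7, and 3.18, 3.08 and 3.19 at day 14. The arrays of both genes overlapped between day 0 and days 2 and 7, while on day 14 SCAP lay above all day 0 arrays. Both varied less over the days than the other regulators, with day means within 0.31 for INSIG2 and 0.30 for SCAP on the log2 scale, and their 2 or 3 probes each passed in no comparison with day 0. Their day 7 changes were -0.063 ± 0.18 SE and -0.10 ± 0.18 (adjusted p = 0.828 and 0.714, limma).

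Of the 5 genes of fatty acid synthesis, none passed the test on day 2 and 2, ACLY and ACACA, rose on day 7 (11% of all genes). The median change was 0.88 on day 2 and 0.78 on day 7. ACLY, the citrate lyase that makes cytosolic acetyl-CoA for both pathways, had 2.22, 2.34 and 2.38 at day 0, 2.90, 3.02 and 2.17 at day 2, 3.27, 3.18 and 2.83 at day 7, and 2.42, 2.91 and 1.98 at day 14. The day 7 arrays lay above those of day 0, and on day 2 and day 14 cow 3 was lower than on its own day 0. ACLY rose on day 7 by a log2 change of 0.78 ± 0.22 SE (adjusted p = 0.0413, limma).

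ACACA, acetyl-CoA carboxylase, the committed step of fatty acid synthesis, had -3.79, -3.44 and -4.55 at day 0, -3.08, -3.20 and -2.85 at day 2, -2.78, -2.64 and -2.31 at day 7, and -3.73, -4.03 and -2.83 at day 14. It was the 1 gene of the 30 whose day 7 arrays all lay above the day 2 arrays, beside 11.4% of all genes. ACACA rose on day 7 (log2 change 1.35 ± 0.37 SE, adjusted p = 0.0387, limma), with a change of 2.24 in cow 3 against 1.01 and 0.80 in cows 1 and 2. The day 0 signal of cow 3 was the lowest of the 12. Other probes of ACACA, well above background on 8 and 4 arrays, had 1.47 and 0.55 on day 7 (adjusted p = 0.132 and 0.65). The mean of its probes was not called there (adjusted p = 0.191).

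SCD, the stearoyl-CoA desaturase, had the largest day 2 change of the 30 genes and did not pass the test. Its change was 2.19, 1.74 and 2.23 in cows 1, 2 and 3 at day 2, a log2 change of 2.05 ± 0.56 SE (adjusted p = 0.0927, limma), without overlap with day 0. All 7 of its probes had day 2 changes between 1.46 and 2.22, and none of them passed. FASN, fatty acid synthase, had 0.92 ± 0.42 on day 2 (adjusted p = 0.260) and 0.21 on day 7. ELOVL6, an elongase, had 0.54 on day 2 and -0.74 on day 7 (adjusted p = 0.432 and 0.179), and 1 of its 4 other probes passed on day 7 (-1.34, adjusted p = 0.0454).

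The 3 genes of sterol transport did not pass the test on any day. STARD4, a carrier of cholesterol in the cytosol, had log2 changes of 0.17 on day 2 and 0.54 on day 7 (adjusted p = 0.786 and 0.246). NPC1 and NPC2, which together release cholesterol from lysosomes, had 0.25 and 0.31 on day 2 (adjusted p = 0.713 and 0.277), and 0.077 and 0.024 on day 7. NPC2 lay above day 0 on all day 2 arrays, by 0.37, 0.38 and 0.18 in cows 1, 2 and 3.

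Other probes of a gene mostly moved the same way as its brightest one. Of 51 further probes of 26 genes, 48 had the sign of the brightest probe on day 2, 45 on day 7 and 47 on day 14. Probes of 1 gene share its transcripts and are not replicates of a day.

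**Figure D4:**
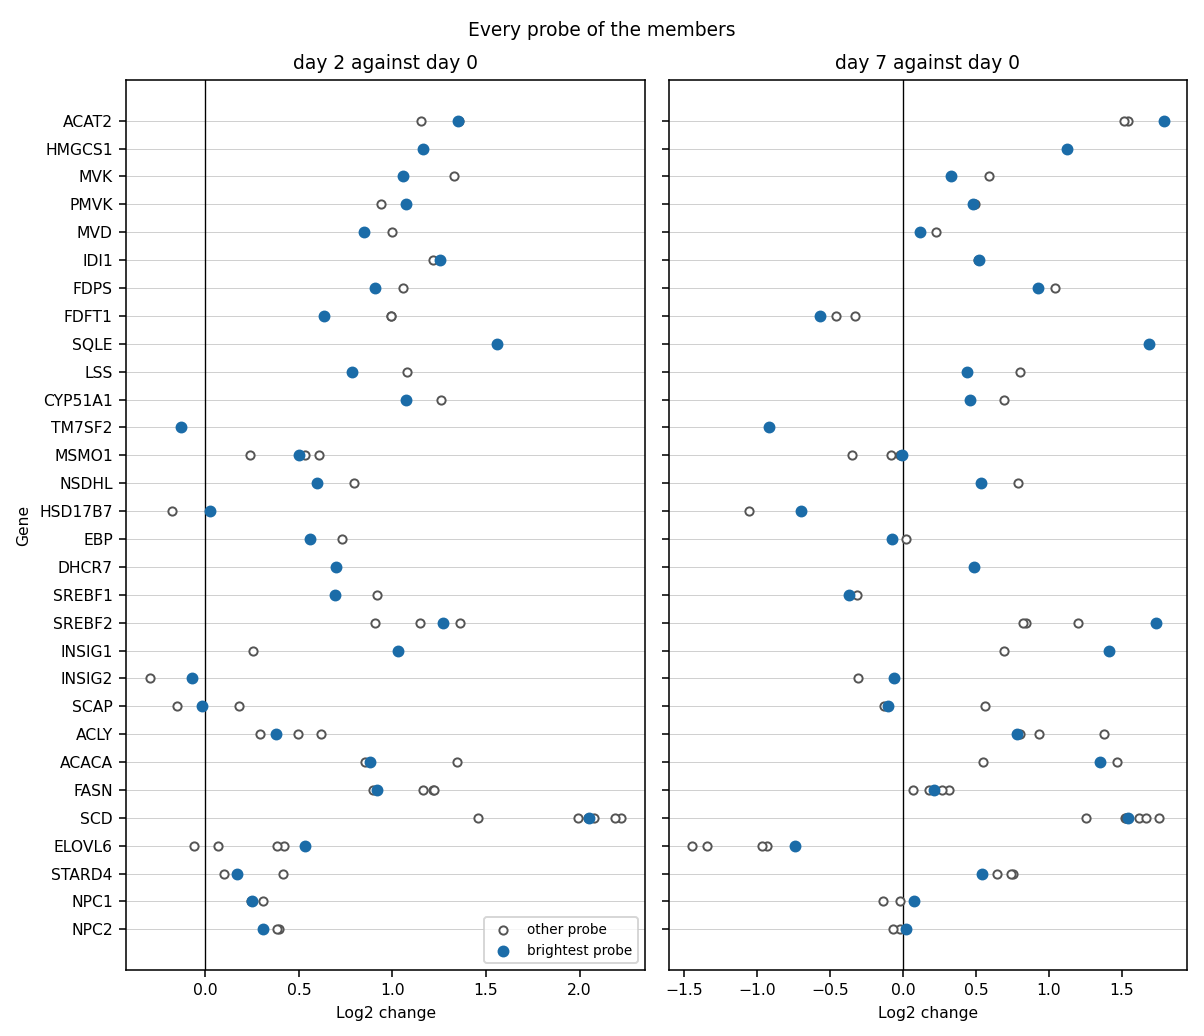
Log2 change on day 2 and day 7 against day 0 for all 81 probes of the 30 genes (rows); filled points are the brightest probe of a gene and open points its other probes. The 7 probes of SCD lie between 1.46 and 2.22 on day 2, while on day 7 the other probes of SREBF2 lie below its brightest one.

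Between the later days, the limma fit used above, without array weights, called none of the 30 genes, while some alternatives called a few to most of them. The estimation of the array weights used in some of these alternatives did not converge. On day 7 against day 2 the median log2 change was -0.31, with 0.552% of all genes called, and 6 of the 30 passed at an unadjusted p under 0.05, and 2392 of the 12507. Among the 6 were FDFT1 (-1.20 ± 0.32 SE, adjusted p = 0.116) and MVK (-0.73 ± 0.20, adjusted p = 0.118). MVK, FDFT1, TM7SF2, HSD17B7, SREBF1, ELOVL6 and NPC2 lay lower on all day 7 arrays than on all day 2 arrays, 7 of the 30, beside 9.27% of all genes. The change by cow was not of 1 sign, with medians of -0.75, -0.40 and 0.35 in cows 1, 2 and 3. Without cow 3, 4 of the 30 were called lower, and 2123 of the 33539 probes in either direction. With array weights 13 of the 30 and 10134 of the probes were called.

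On day 14 against day 7 the median change was -0.36, with 0.136% of all genes called, and 8 of the 30 passed at an unadjusted p under 0.05, and 2333 of the 12507. SQLE had -1.23 ± 0.25 SE (adjusted p = 0.0776), INSIG1 -1.48 ± 0.38 (adjusted p = 0.118) and TM7SF2 0.95 ± 0.21 (adjusted p = 0.0846). Lower on all day 14 arrays than on all day 7 arrays were 7 of the 30, HMGCS1, FDPS, SQLE, CYP51A1, NSDHL, INSIG1 and ACACA (10.7% of all genes), and higher were 2, TM7SF2 and SCAP (9.65% of all genes). With array weights 11 of the 30 and 9429 of the 33539 probes were called, and with normexp background correction 1 of the 30.

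On day 14 against day 2 the median change was -0.66, and 27 of the 30 changes were below 0, with 0% of all genes called. At an unadjusted p under 0.05, 14 of the 30 passed, and 1568 of the 12507, with CYP51A1 at -1.49 ± 0.29 SE (adjusted p = 0.160, limma). The day 14 arrays all lay below the day 2 arrays for 11 of the 30 (7.32% of all genes), and all above for 0 (6.66% of all genes). With array weights 26 of the 30 were called lower, and 15553 of the 33539 probes in either direction, the weights of single arrays running from 0.18 to 11.3.

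Genes of the same pathways outside the 31 were read from lists. Of 10 measured genes of sterol synthesis and uptake, none passed on day 2 and 1 rose on day 7 (11% of all genes), MBTPS2, a protease that releases the SREBP factors (log2 change 0.85 ± 0.17 SE, adjusted p = 0.0146, limma). The median change of the 10 was 0.34 on day 2 and 0.37 on day 7. Of 13 measured further fatty acid genes, 1 rose on day 2, beside 1.97% of all genes. It was ELOVL1, an elongase of very long chains (0.77 ± 0.16, adjusted p = 0.0490, limma).

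On day 7, 4 of those 13 fatty acid genes rose, beside 11% of all genes, and their median change was -0.24. ME1, the malic enzyme that supplies NADPH, rose 3.17-fold (log2 change 1.66 ± 0.24 SE, adjusted p = 0.00523, limma) and FADS2, a desaturase of polyunsaturated fatty acids, 3.63-fold (1.86 ± 0.43, adjusted p = 0.0244). ELOVL1 (0.80) and the desaturase FADS1 (1.13) also rose. All 4 were higher in 3 of 3 cows.

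Among 14 genes of sterol efflux, oxysterols and sterol esters, 1 was called on day 2, when 0.975% of all genes fell, and 3 on day 7, all lower. ABCA1, a pump that exports cholesterol, fell on day 2 by a log2 change of -2.10 ± 0.27 SE (adjusted p = 0.0129, limma), lower in 3 of 3 cows (-1.93, -2.11 and -2.26). Its probe was well above background on 2 of 3 day 2 arrays and on 3 of 3 day 0 arrays. On day 7, when 8.23% of all genes fell, the 3 were ABCA1 (-1.29, adjusted p = 0.0165), the exporter ABCG1 (-1.498, adjusted p = 0.0373) and CYP27A1, which makes 27-hydroxycholesterol (-1.27, adjusted p = 0.00841). The medians of the 14 were -0.0070 on day 2 and -0.13 on day 7.

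Markers of cell types moved with some of these results, and their part in the results was not tested. Each array had 4 or 5 of the 5 measured endometrium markers well above background, and HOXA11 was not measured. On day 7, 3 of those 5 rose: the oestrogen receptor ESR1 (log2 change 1.86 ± 0.35 SE), the progesterone receptor PGR (1.74 ± 0.30) and SERPINA14, a secreted uterine protein (8.09 ± 1.62), each with an adjusted p under 0.05 (limma), beside 11% of all genes. The mean of the list was between 0.27 and 0.75 on the day 7 arrays and between -2.49 and -1.60 on those of day 0.

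The cows differed on day 2 in tissue markers as well as in the genes described. The day 2 mean over the 30 genes was 1.98, 2.09 and 1.40 in cows 1, 2 and 3, against 1.11, 1.20 and 0.93 at day 0. All 8 epithelial markers were well above background throughout and none was called on day 2 or day 7. Their mean was 2.63, 2.54 and 0.99 at day 2, against 2.38, 2.18 and 1.94 at day 0. The 5 smooth muscle and pericyte markers had means of 2.48, 2.03 and 4.57 at day 2, against 2.42, 1.98 and 2.64 at day 0. Among the 3 day 2 arrays, that of cow 3 was lowest in the 30 genes and in epithelial markers and highest in muscle markers.

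Leaving that array out moved the median change of the 30 genes on day 2 to 0.93 and called 2 of them on day 2 and 9 on day 7. Over all probes, 562 were called there on day 2 and 6723 on day 7, against 846 and 6100 with all arrays. Of the 2 genes called on day 2, SQLE was also called with all arrays, and the other was not. MVK was no longer called on day 2 there (adjusted p = 0.0816), with a change of 0.96. On day 7, 2 of the 5 muscle markers, ACTA2 and DES, rose, and the list's mean was between 3.01 and 4.16, against 1.98 to 2.64 on day 0. The list did not move as 1, with 4 of the 5 changes above 0 and 1 below (-1.05) on day 7. On day 2 likewise 4 were above 0 and 1 below (-1.14). Proliferation markers, of which 6 of 9 were measured (MKI67, TOP2A and MCM2 were not), had 2 rises on day 2, RRM2 (log2 change 4.47 ± 0.49 SE) and CCNB2 (3.13 ± 0.62), and their mean was between -0.94 and 0.62 on the day 2 arrays and between -2.57 and -1.07 on those of day 0. On day 7 their calls were mixed, with 2 of the 6 higher and 1, CCNB1, lower (8.23% of all genes fell). Of 7 macrophage markers, 1 rose on day 2 (CD68) and 3 on day 7 (CD68, CD14 and CSF1R). The mean of the macrophage list was between -1.32 and -0.90 on day 2, between -2.80 and -0.63 on day 7 and between -2.70 and -2.52 on day 0. Beside these counts of muscle, proliferation and macrophage markers, 1.97% of all genes rose on day 2 and 11% on day 7. For adipocytes, which also make fatty acids, the defining markers ADIPOQ, LEP and CIDEC did not pass the filter on dim probes. The mean of the other 2, PLIN1 and FABP4, was -4.41, -4.43 and -2.01 at day 2 in cows 1, 2 and 3, against -4.69, -5.13 and -4.99 at day 0, and neither was called. On day 2 these 2 genes moved in opposite directions, with log2 changes of -0.452 and 3.099. Both had an unadjusted p under 0.05 (limma), so their mean does not describe the 2 as 1 list.

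**Figure D5:**
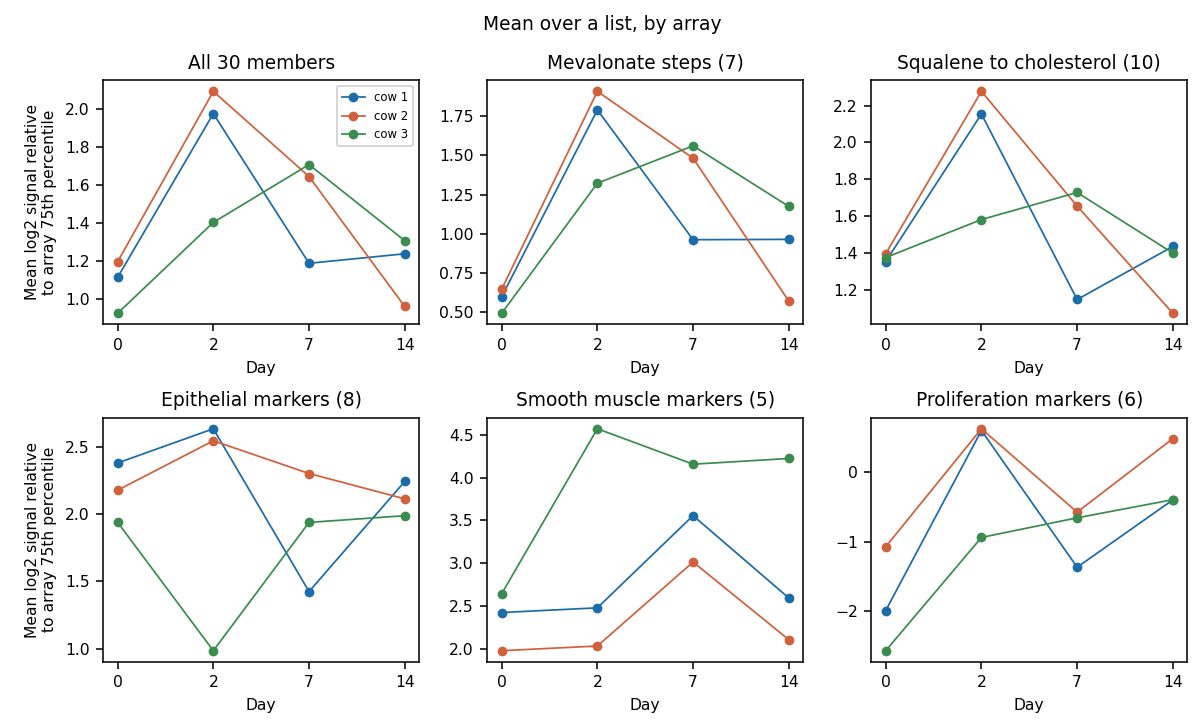
Mean log2 signal over the genes of a list on each of the 12 arrays, by day, with 1 line per cow: all 30 genes, the mevalonate steps, squalene to cholesterol, and markers of epithelium, smooth muscle and proliferation, each panel on its own axis. On day 2 cow 3 is lowest for the 30 genes (1.40) and for epithelium (0.99) and highest for smooth muscle (4.57).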

How the data were processed

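Endometrial RNA of 3 cows on 4 days was measured on 12 one-colour Agilent arrays. The authors deposited scanner files of spot intensity from Agilent Feature Extraction, of which the file headers name version 11.5.1.1 and the submitters' processing notes 10.5.1.1, and a value table on a log2 scale. The table is the log2 of the scanner's processed signal less the array's 75th percentile and the probe's own median, with median differences up to 0.00051. Its scale, centring and direction rest on that match alone. Column medians ran from -0.074 to 0.078.

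From the scanner files, log2 processed signal minus each array's 75th percentile (824 to 1117 in intensity) was computed, without 1417 control spots and 31 outlier-marked probes of 43653. Saturated probes were absent (0), and 12 arrays limit the precision. Probes well above background on at least 3 arrays were tested (33539) in limma 3.58.1 (R 4.3.3), with a day factor and the cow as block, which the design text gives (6 residual and 2.33 prior degrees of freedom) and Benjamini-Hochberg adjustment over all of them at 0.05. Deviations from day means correlated at a mean of 0.285 within cows (lowest 0.0235, 18 pairs). The fit was tested on simulated data.

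The genes and lists were chosen with earlier results of these data known. Values on all arrays are given for genes past the threshold against day 0 or in the F-test and for the 5 regulators. Other lists are given by counts and by called genes. Alternatives tried were the file links as sample names, no replicate block, 2 days alone, each cow left out, the day 2 array of cow 3 left out, quantile scaling, normexp with quantile scaling, other filters on dim probes, array weights, the deposited table, the mean of a gene's probes, and naming through accessions. Stroma, ciliated cell, neutrophil, T cell, endothelium and red cell markers were also measured.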

Additional observations from a re-analysis of the deposited data

How the results depend on the processing

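Of the 11 calls against day 0, all held on the deposited table, under the stricter filter on dim probes and with array weights. The deposited table differs from the values used by a constant for each probe, so its changes were the same by construction. The stricter filter also left each change as it was and only tested fewer probes. Of the 11 calls, 10 held with normexp and without the day 2 array of cow 3. With the mean of a gene's probes 9 held, with quantile scaling 8 and with no filter 6. Naming through accessions kept 9 of the 11, the genes it found, and all 9 held. Without cow 1 or cow 2 none held (adjusted p from 0.0908 to 0.342). All 11 kept their direction, which was fixed beforehand, because each change had the same sign in every cow. For SQLE on day 7 the change was 1.88 and 1.48 against 1.69. Of all 33539 probes, 0 were called on either day without cow 1, and 0 on day 2 and 213 on day 7 without cow 2. Without cow 3 8 held, and with only the arrays of the 2 days compared 2 held. Genes called ran from 0 to 1 (day 2), 0 to 8 (day 7), 0 to 7 (F-test) and 0 to 4 (day 7 against day 2) when a cow was left out. Leaving out cow 3 gave the 4. The F-test called 0 of all 33539 probes without cow 1 or without cow 2, and 3275 without cow 3, against 2623 with all cows. The design text sets the cow as block, and with no replicate block 1 gene was called on day 2. This moved no other count by over 1.5 times, and 8 of the 11 calls held. Quantile scaling called 1 on day 2. With no filter on dim probes the counts were 1 (day 2), 5 (day 7) and 2 (F-test). Over all probes the F-test then called 1445 of 43622, against 2623 of 33539 with the filter. Whether the counts of these genes moved more than those over all probes was not tested. The fit on the 2 days alone called 2 on day 7, and normexp called 1 on day 14 against day 7. Array weights called 19 (day 2), 27 (F-test), 26 (day 14 against day 2), 11 (day 14 against day 7) and 13 (day 7 against day 2), with 5075, 20628, 15553, 9429 and 10134 of the 33539 probes called in the same comparisons. The weights' estimation did not converge, and the cause of these counts was not tested. Under the file links, counts were 0 on day 2, on day 7 and in the F-test. That F-test called 124 of the 33539 probes, against 2623 under the table's names. Median changes under the file links were 0.13 on day 2, -0.15 on day 7, 0.31 on day 14 against day 7 and -0.099 on day 14 against day 2. There the changes reversed for ACACA (-0.52), FDPS (-0.048), INSIG1 (-0.078) and SREBF2 (-0.13) on day 7 and for MVK (-0.11) and SQLE (-0.089) on day 2.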

Other observations

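Other marker lists were measured beside the genes described. Endothelial markers had 1 rise of 4 on day 2, PECAM1 (log2 change 1.13 ± 0.23 SE, adjusted p = 0.0471, limma), and 2 of 4 on day 7, PECAM1 and VWF (2.04 ± 0.45, adjusted p = 0.0203). Of 6 T cell markers, CD2 rose on day 7 (0.86 ± 0.24, adjusted p = 0.0429). Of all genes 1.97% rose on day 2, and 11% rose and 8.23% fell on day 7. CCNB1, a mitotic cyclin, fell on day 7 (-2.37 ± 0.36, adjusted p = 0.00654), while RRM2, of nucleotide synthesis, rose on day 7 (3.79) and on day 14 (4.07, adjusted p = 0.044). RRM2 was 1 of the 2 proliferation markers called higher on day 7. None of the 6 stroma, 5 ciliated cell, 3 measured neutrophil or 2 measured red cell markers passed the test against day 0 (limma). Both red cell markers passed the F-test over the 4 days, HBA (adjusted p = 0.0415) and HBB (adjusted p = 0.0397). On day 14 against day 0 their log2 changes were 2.23 ± 0.47 SE (adjusted p = 0.0752) and 4.56 ± 0.93 (adjusted p = 0.0712), higher in 3 of 3 cows, and the probe of HBB was well above background on 3 of 3 day 14 arrays and 1 of 3 day 0 arrays. At an unadjusted p under 0.05, 3 of the ciliated cell markers passed on day 2, and all 5 had changes below 0 with a median of -1.16.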
